A study of Mus musculus with 12 samples.

Results

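Interferon-stimulated genes are the genes that cells switch on when they sense interferon or viral nucleic acid. A list of 44 of them was followed here through mouse embryonic fibroblasts that had been turned toward skeletal muscle with or without the retinoblastoma protein Rb1 and the histone demethylase Kdm5a. The 44 genes were taken from a list of symbols, which covers signalling factors, sensors and effectors and leaves antigen presentation out, and all 44 were found among the 36229 gene rows of the deposited table. RNA was sequenced in 12 libraries, 2 in each of 6 groups. The mixed cultures, with myotubes and undifferentiated cells together, gave 8 libraries: wild type (WT), Kdm5a-/- (Kdm5a KO), Rb1-/- (Rb1 KO) and Kdm5a-/-;Rb1-/- (DKO). Purified myotubes gave 4, from WT and DKO only. All the cells were of the C57BL/6 strain, and all, controls included, were exposed to an adenovirus carrying MyoD for 24 h. Their medium held 10 µg/ml insulin and 2% horse serum, and differentiation went on for 72 h. No library of cells without virus was analysed here, so levels shared by every group include whatever the virus and the culture induce. Mixed cultures gave 1.7 µg of RNA to ribosomal depletion and 40-base reads. Myotubes were separated by size and gravity, trypsinised 24 h before extraction and left for 24 h in conditioned medium, and 1.5 µg of their RNA went through oligo(dT) selection, 15 cycles of amplification and 36-base reads. The 2 kinds of library are therefore described apart. The labels do not say whether the 2 libraries of a group came from separate embryos or cultures, so the p-values measure only the spread between these libraries, which may be technical.

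As background, type I interferons bind a receptor whose kinases phosphorylate STAT proteins. Stat2 and Irf9 are parts of the complex ISGF3, which binds the interferon-stimulated response element (ISRE). Interferon gamma acts instead through the gamma-activated site (GAS). Products of the induced genes sense viral RNA, degrade or edit it, block translation, modify proteins with the ubiquitin-like Isg15, restrict virus entry or assembly, or attack the vacuoles of intracellular parasites. Several of them, among them Stat2, Irf7 and Irf9, feed back on the pathway itself. Fibroblasts are a classical cell type for this response.

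Libraries held 8688604 to 41309134 reads. Replicates of 5 groups differed by a median of 0.107 to 0.176 on the log2 scale over all genes, and the 2 DKO purified libraries by 0.499, so they stand apart. Cell markers moved with genotype: summed over 8 skeletal muscle genes, WT mixed libraries held 325706 to 361012 normalised reads and Rb1 KO libraries 54122 to 55331, with DKO at 152316 to 167942. Summed over 8 fibroblast genes, the values were 9280 to 9464 in WT, 55759 to 71881 in Rb1 KO and 12435 to 13318 in DKO. Purified libraries held 412177 to 439433 for muscle and 13578 to 16730 for fibroblast genes in WT, against 101232 to 129650 and 24304 to 32945 in DKO. The fibroblast sum there moved mostly with Fn1, at 5466 and 7152 in WT and 14826 and 25295 in DKO. Col3a1 was lower in DKO, at 940 and 638 against 2039 and 2249. By the test described below, 3 of 6 fibroblast genes tested rose and 1 fell, and of 8 muscle genes 1 rose and 5 fell. Over all genes 21.0% rose and 18.6% fell there. In WT the fibroblast and muscle sums were both higher in purified than in mixed libraries. Of the fibroblast genes, Col1a1, Col1a2, Pdgfra and Fn1 were higher there, and Col3a1, Thy1, Dcn and Lum were lower. Myh3, Myh8, Actn2, Myog and Neb were higher, with Myh8 at 5433 and 6317 in mixed and 78148 and 69138 in purified libraries. Ttn, Tnnt3 and Ckm were lower, with Ckm at 2827 and 2456 in mixed and 463 and 432 in purified libraries. These markers go both ways, so they do not show that the purified WT libraries held less RNA of other cells. Xist was at 0 in WT and Rb1 KO mixed libraries and at 3109.9 to 6933 in Kdm5a KO and DKO mixed libraries, so a comparison between Kdm5a genotypes also compares cells of different sex, and these cannot be told apart.

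The promoters of 6 members are shown because they hold the elements through which interferon acts on such genes, or lack them. Each is the 150 bases before the annotated start in RefSeq on GRCm38.p6, 5′ to 3′ along the gene, and capitals mark the motifs found on either strand, the ISRE core GAAANNGAAA and the GAS TTCNNNGAA, which may overlap. Isg15 (chr4:156200819-156200968, minus strand) holds 3 overlapping ISRE matches, starting 78 to 66 bases before the start. Ifit1 (chr19:34640739-34640888, plus strand) holds 2, at 104 and 85. Gbp3 (chr3:142559894-142560043, plus strand, the first of its annotated starts) holds 2, at 45 and 39. Igtp (chr11:58199406-58199555, plus strand) holds an ISRE at 34 beside a GAS at 45. Irf1 (chr11:53769864-53770013, plus strand, the first of its starts) holds a GAS at 90 and no ISRE. Trim25 (chr11:88999253-88999402, plus strand) holds neither.
Isg15: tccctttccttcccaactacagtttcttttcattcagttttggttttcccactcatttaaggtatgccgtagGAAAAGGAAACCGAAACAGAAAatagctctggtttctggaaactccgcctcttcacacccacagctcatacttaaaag
Ifit1: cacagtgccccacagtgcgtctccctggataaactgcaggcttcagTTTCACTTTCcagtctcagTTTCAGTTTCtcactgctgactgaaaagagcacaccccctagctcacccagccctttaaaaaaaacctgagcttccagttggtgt
Gbp3: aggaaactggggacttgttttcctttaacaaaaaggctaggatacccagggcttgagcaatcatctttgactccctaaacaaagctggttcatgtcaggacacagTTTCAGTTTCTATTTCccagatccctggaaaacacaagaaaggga
Igtp: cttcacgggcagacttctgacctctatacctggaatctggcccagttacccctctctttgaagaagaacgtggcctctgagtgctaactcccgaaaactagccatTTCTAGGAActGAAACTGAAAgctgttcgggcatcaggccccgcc
Irf1: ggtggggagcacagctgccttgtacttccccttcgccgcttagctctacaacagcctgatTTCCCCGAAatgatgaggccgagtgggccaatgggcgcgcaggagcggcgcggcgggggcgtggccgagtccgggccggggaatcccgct
Trim25: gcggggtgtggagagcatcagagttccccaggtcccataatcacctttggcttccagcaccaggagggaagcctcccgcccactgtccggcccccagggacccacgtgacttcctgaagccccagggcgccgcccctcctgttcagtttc

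RefSeq promoter windows of 300 bases, 250 before and 50 after the start, were at hand for 33 of the 44 members. An ISRE match was present in 17 of them (51.5%), against 3.99% of all 27025 genes with such a window. A GAS match was present in 11 (33.3%), against 9.55% of all genes, and 5 members held both. A match is a description of the letters in this window and does not show that a factor binds there. In the comparison of Rb1 KO with WT described next, 13 of 15 tested members with an ISRE match rose (median log2 change 1.60) and 14 of 15 without one did (median 2.09). Nearly all rose in either set, so this comparison cannot tell whether the motif separates members that rose from members that did not.

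The values below are reads divided by the library's size factor (normalised reads), given for replicate 1 and then replicate 2. Changes are log2 changes ± standard error from limma on log2(value + 1), which understates the change of low genes. Adjusted p is Benjamini-Hochberg over all genes whose values averaged 10 or more across the libraries of the fit. Genes under 0.05 are described as rising or falling. With 2 libraries a group, genes without a change often separate too. Statements that libraries do not overlap describe the values and add no support to a call. The share of all genes without overlap is not given. In mixed cultures 41 members reached that mean. Oas1a, Oas3 and Ifitm1 did not, with means of 9.72, 2.67 and 1.47. For 14 of the 41 the WT mean was under 10, so these passed the filter only through groups in which they were higher, and counts over the 41 are descriptive.

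Most of the 44 genes were low in WT and Kdm5a KO cultures and high in Rb1 KO and DKO cultures. The median over members of the group mean was 17.7 normalised reads in WT, 32.0 in Kdm5a KO, 215 in Rb1 KO and 164 in DKO. It was 18.0 in WT and 26.9 in DKO purified myotubes. Of the 41 tested members the highest mixed group was Rb1 KO for 27, DKO for 12, Kdm5a KO for 1 and WT for 1, and the lowest was WT for 26, Kdm5a KO for 13 and DKO for 2. Per kilobase of exon, Ifi27 was the highest member in WT cultures at 614 normalised reads per kb, followed by Bst2 at 263, Trim25 at 170 and Ifit2 at 140. In Rb1 KO cultures Ifitm3 led at 1612 per kb, ahead of Ifi27 at 804, Bst2 at 569 and Ifit1 at 345. Exons shared with another gene make the reads of 10 members uncertain: Irf7, Irf9, Dhx58, Dtx3l and Parp9 with each other, Oasl1, Eif2ak2, Adar, Igtp and Ifi35. The Ifit, Oas, Gbp and Ifitm families have close copies whose reads may also be split.

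**Figure D1:**
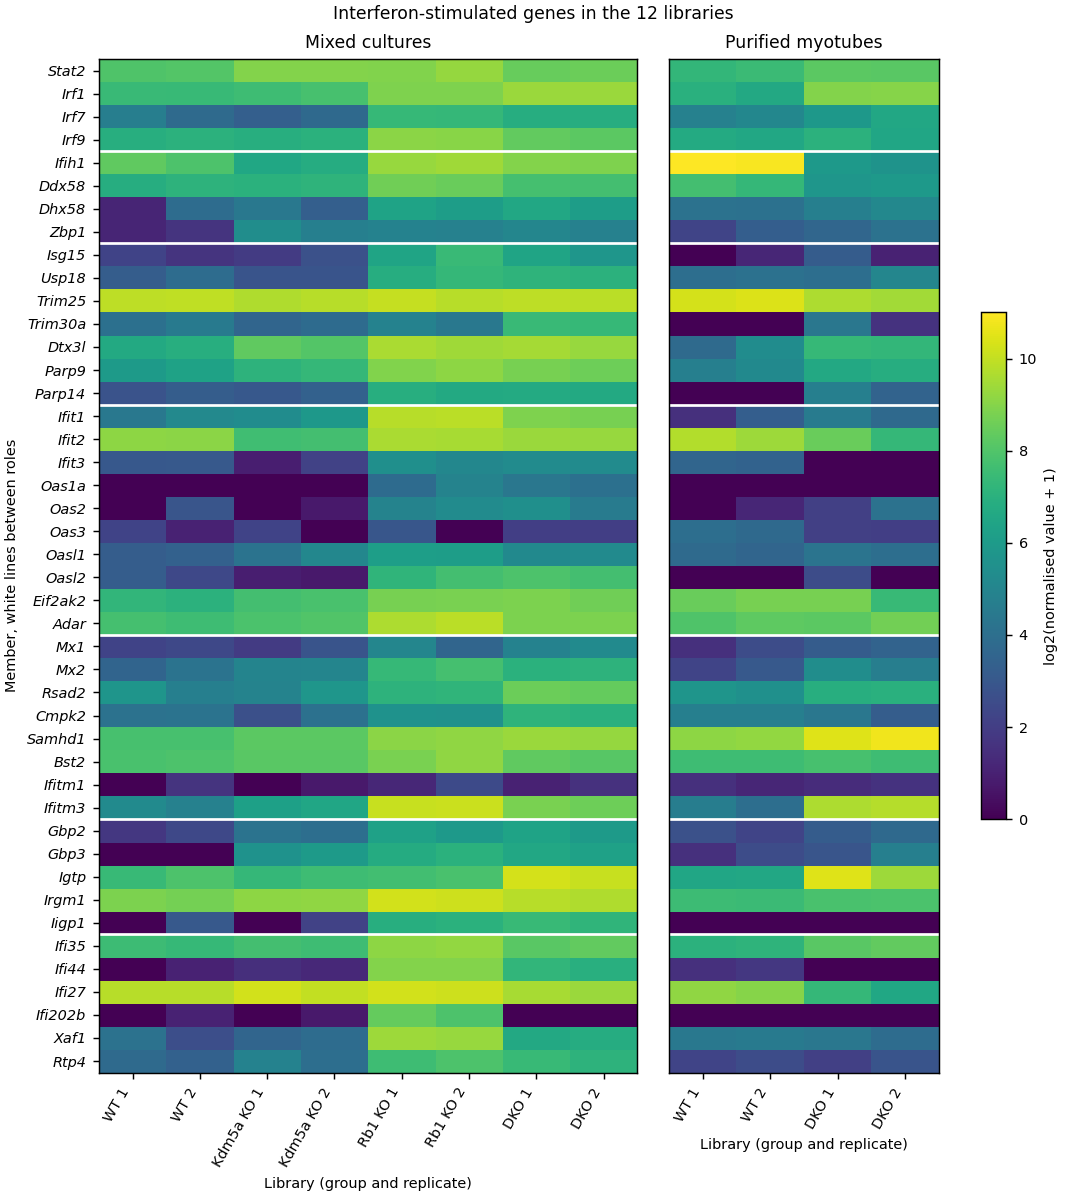
Log2(value + 1) of the 44 genes (rows, ordered by role, white lines between roles) in the 8 mixed and 4 purified libraries (columns). The Rb1 KO and DKO mixed libraries are high in most rows, while the DKO purified libraries are high in few, among them Ifitm3, Igtp, Irf1 and Samhd1.

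Loss of Rb1 was followed by a rise across every role on the list. In Rb1 KO against WT mixed cultures, 38 of 41 members rose and none fell, with 36 up by at least 2-fold, where 36.8% of all 17199 genes tested rose and 34.3% fell. The median log2 change was 2.74 over the members and 0.03 over all genes. Trim25, Trim30a and Igtp did not pass. With no filter on low values, 39 of 44 rose, against 26.5% of all genes. In DKO against WT, 36 rose, 1 fell and 4 did not pass, against 34.0% and 33.9% of all genes, with a median of 2.63 over the members. With values scaled to the library total instead, 63.9% of all calls in Rb1 KO against WT were rises, against 51.8% on the authors' scale, as the median of all genes moved from 0.03 to 0.26. The same share for DKO against WT was 63.1% against 50.1%. Both comparisons use the same WT libraries.

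**Figure D2:**
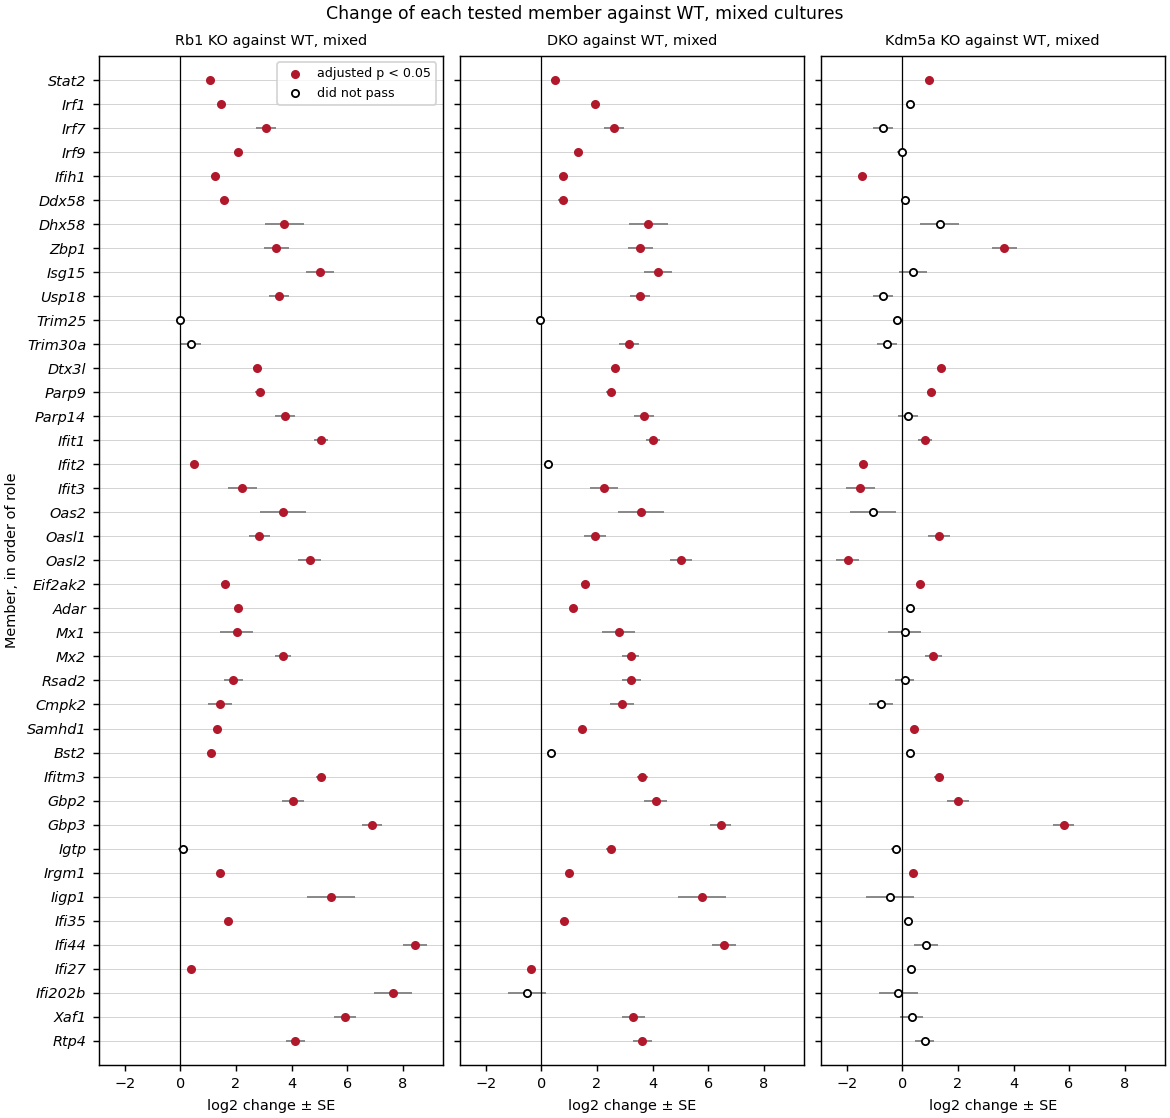
Log2 change against WT in mixed cultures, with its standard error, of 41 members in Rb1 KO, Kdm5a KO and DKO, where filled points passed an adjusted p of 0.05. Of the 41, 38 rose in Rb1 KO and 36 in DKO, while Kdm5a KO had 13 rises and 4 falls.

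All 4 transcription factors on the list rose in both Rb1 KO and DKO, where 36.8% and 34.0% of all genes rose. Irf7, the factor that amplifies type I interferon production, was at 25.1 and 12.8 normalised reads in WT, 162 and 157 in Rb1 KO, and 114 and 116 in DKO, rising by 3.08 ± 0.35 in Rb1 KO (adjusted p = 4.62e-06) and 2.61 ± 0.35 in DKO (adjusted p = 2.49e-05). Irf9, the DNA-binding part of ISGF3, went from 118 and 132 to 544 and 520.4 in Rb1 KO, and stood at 329.8 and 297 in DKO, rises of 2.08 ± 0.15 (adjusted p = 4.33e-08) and 1.32 ± 0.15 (adjusted p = 4.14e-06). For both genes neither genotype without Rb1 overlapped WT. Irf1, a GAS-driven factor typical of interferon gamma signalling, was higher in DKO than in Rb1 KO: 172 and 168 in WT, 473 and 469 in Rb1 KO, 655 and 657 in DKO, or rises of 1.46 ± 0.12 (adjusted p = 2.06e-07) and 1.94 ± 0.12 (adjusted p = 1.78e-08). Stat2 rose from 249 and 266 to 483 and 607 in Rb1 KO (1.07 ± 0.13, adjusted p = 5.95e-06) and less, to 349.8 and 369.8, in DKO (0.48 ± 0.13, adjusted p = 0.00443).

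The cytoplasmic sensors of foreign nucleic acid rose, 4 of 4 in each genotype, against 36.8% of all genes in Rb1 KO and 34.0% in DKO. Ddx58, which encodes the RNA sensor RIG-I, was at 115 and 135 in WT, 389 and 356 in Rb1 KO (1.57 ± 0.16, adjusted p = 1.59e-06) and 218 and 207 in DKO (0.76 ± 0.16, adjusted p = 0.000961). Ifih1, the sensor MDA5 for long double-stranded RNA, was already at 321 and 241 in WT and reached 632 and 699 in Rb1 KO (1.25 ± 0.16, adjusted p = 1.13e-05) and 492 and 471 in DKO (0.79 ± 0.16, adjusted p = 0.000666). Dhx58, their relative without a signalling domain, spread more within WT, at 1.2 and 13.9, and was at 82.4 and 68.8 in Rb1 KO and 95.2 and 68.3 in DKO, rises of 3.74 ± 0.70 (adjusted p = 0.000361) and 3.84 ± 0.70 (adjusted p = 0.000331). None of these 3 sensors overlapped between WT and either genotype. The Z-form nucleic acid sensor Zbp1 rested on 3 reads in WT. It was at 1.2 and 2.13 there and at 28.4 and 27.2 in Rb1 KO, a ratio of 16.3 with a 95% interval of 5.29 to 81.9 that covers counting error only.

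Isg15, the ubiquitin-like protein that gives the modification system its name, and its protease Usp18 rose together. Isg15 was at 3.59 and 2.13 in WT, 85.1 and 173 in Rb1 KO and 85.2 and 54.1 in DKO, rises of 5.01 ± 0.50 (adjusted p = 1.32e-06) and 4.18 ± 0.50 (adjusted p = 8.59e-06). Usp18 was at 8.38 and 13.9 in WT, 115 and 161 in Rb1 KO and 139.9 and 133 in DKO, rising by 3.54 ± 0.35 in each (adjusted p = 1.33e-06 and 1.58e-06). The partners Dtx3l, a ubiquitin ligase, and Parp9, an inactive ADP-ribosyltransferase that works with it, lie side by side and share exons: Dtx3l went from 101 and 119 to 787 and 695 in Rb1 KO (2.74 ± 0.14, adjusted p = 2.23e-09) and Parp9 from 63.4 and 79.9 to 479 and 566 (2.85 ± 0.17, adjusted p = 8.03e-09). For these 4 genes both Rb1 KO libraries lay above both WT libraries, which describes the values only. The ligase Trim25, which activates RIG-I, was the member that moved least. It was at 966 and 988 in WT, 1049 and 903 in Rb1 KO and 944 and 921 in DKO. Its changes were -0.0048 ± 0.09 (adjusted p = 0.964) and -0.07 ± 0.09 (adjusted p = 0.519). Scaled to the library total, its Rb1 KO value was 0.27 (adjusted p = 0.0118), close to the shift of all genes on that scale. Trim30a, another ligase of the family, was at 15.6 and 21.3 in WT, 28.4 and 19.9 in Rb1 KO (0.37 ± 0.36, adjusted p = 0.374) and 176 and 163 in DKO, where it rose by 3.15 ± 0.36 (adjusted p = 5.09e-06).

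The effectors that bind or cut RNA and halt translation rose in 8 of 8 tested members in Rb1 KO and 7 of 8 in DKO. The shares of all genes that rose were 36.8% and 34.0%. Ifit1, which binds viral RNA lacking cap methylation, spanned a wide range: 20.3 and 35.2 in WT, 910.1 and 920.5 in Rb1 KO and 469 and 432 in DKO, rises of 5.04 ± 0.25 (adjusted p = 1.48e-09) and 4.02 ± 0.25 (adjusted p = 1.64e-08). Its neighbour in function Ifit2 was already high in WT at 562 and 536 and rose by 0.48 ± 0.10 in Rb1 KO, to 779 and 754 (adjusted p = 0.000675), but not past the threshold in DKO, at 649 and 634 (0.22 ± 0.10, adjusted p = 0.0578). The RNA-editing enzyme Adar went from 214 and 192 to 801 and 934 in Rb1 KO (2.09 ± 0.12, adjusted p = 8.02e-09) and to 450.3 and 454 in DKO (1.15 ± 0.12, adjusted p = 2.83e-06), so the DKO libraries lay between the other 2 groups without overlap. Eif2ak2, the kinase PKR that stops translation on double-stranded RNA, rose alike in both, from 148 and 134 to 424 and 438 in Rb1 KO and 449 and 389.5 in DKO (1.60 ± 0.14 and 1.56 ± 0.14, adjusted p = 2.68e-07 and 4.25e-07). The oligoadenylate synthetases, which switch on RNase L, began near 0: Oas1a had no reads in WT or Kdm5a KO and 13.5 and 29 normalised reads in Rb1 KO, at least 13.5-fold higher than a floor of 3 reads over the WT group, and at least 10.3-fold higher in DKO. The related Oasl2 went from 8.38 and 4.26 to 144 and 211 in Rb1 KO and 246 and 211 in DKO, while Oas3 stayed at or under 6.75 in every mixed library.

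Genes that restrict virus entry, replication or release rose in 7 of 7 tested members in Rb1 KO and in 6 of 7 in DKO. Over all genes the shares were 36.8% and 34.0%. Ifitm3, a membrane protein that blocks virus fusion in endosomes, was at 37.1 and 27.7 in WT, 1072 and 1113 in Rb1 KO and 439.8 and 382 in DKO, rises of 5.05 ± 0.18 (adjusted p = 8.50e-11) and 3.64 ± 0.18 (adjusted p = 2.48e-09). Ifitm1, its relative, was almost unread, at 1.35 and 4.53 in Rb1 KO and at most 2.13 in any other mixed library. Bst2, the tether that holds budding virions at the cell surface, rose from 229.7 and 245 to 447 and 580.2 in Rb1 KO (1.10 ± 0.14, adjusted p = 1.51e-05) and stood at 315 and 282 in DKO (0.33 ± 0.14, adjusted p = 0.0572), above both WT libraries but not past the threshold. Samhd1, which depletes nucleotides for reverse transcription, rose from 225 and 225 to 551 and 570.2 in Rb1 KO and to 641 and 616 in DKO (1.31 ± 0.10 and 1.48 ± 0.10, adjusted p = 1.51e-07 and 6.20e-08). The adjacent functional pair Rsad2, or viperin, and Cmpk2, which supply a chain-terminating nucleotide, were higher still in DKO: Rsad2 was at 52.6 and 25.6 in WT, 136 and 144 in Rb1 KO and 368 and 338 in DKO. Mx1 and Mx2, dynamin-like GTPases against viruses, rose from 3.59 and 4.26 to 32.4 and 10.9, and from 10.8 and 17.1 to 165 and 213, in Rb1 KO. The Mx1 call rests on Rb1 KO replicate 1: without that library the change was 1.27 (adjusted p = 0.118), against 2.02 ± 0.60 with it (adjusted p = 0.00918).

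The interferon-induced GTPases that act on pathogen vacuoles split. Igtp was not raised in Rb1 KO but rose in DKO: 169.9 and 244 in WT, 203 and 228 in Rb1 KO (0.08 ± 0.18, adjusted p = 0.708) and 1235 and 1064 in DKO (2.49 ± 0.18, adjusted p = 5.86e-08). Its exons overlap those of the family member Irgm2, so the reads cannot be assigned to it alone. Irgm1 was high throughout, at 457 and 409 in WT, 1200.4 and 1137 in Rb1 KO (1.43 ± 0.09, adjusted p = 2.18e-08) and 911 and 828 in DKO (1.004 ± 0.09, adjusted p = 8.09e-07). Iigp1 had 0 and 7.46 in WT and 117 and 128 in Rb1 KO (5.41 ± 0.86, adjusted p = 9.57e-05), with 171 and 145 in DKO (5.77 ± 0.86, adjusted p = 6.27e-05). Gbp3 had no reads in WT and 108 and 129 in Rb1 KO, at least 71.1-fold higher over the 3-read floor, and 95.2 and 77.8 in DKO, at least 50.4-fold higher. Gbp2 went from 2.39 and 4.26 to 78.3 and 60.6 in Rb1 KO and 81.5 and 63.2 in DKO.

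The remaining members, which have varied or poorly defined functions, held the most extreme values. Ifi44 had 1 read in WT, in a single library, and 494 and 501 normalised reads in Rb1 KO, a ratio of 883 with a 95% interval of 158 to 34929.6 from counting error alone. It was at 148 and 123 in DKO. Xaf1, a pro-apoptotic partner of XIAP, was at 16.8 and 5.33 in WT, 660.3 and 622 in Rb1 KO and 97.8 and 109.8 in DKO, rises of 5.92 ± 0.41 (adjusted p = 3.48e-08) and 3.30 ± 0.41 (adjusted p = 1.08e-05). Ifi202b, a cytosolic DNA-binding protein of the HIN family, was at 339 and 242 in Rb1 KO and at no more than 1.07 in any other library of the 12. It is known as background to differ in expression between inbred mouse strains. Ifi35 rose from 187 and 163 to 558 and 603 in Rb1 KO (1.73 ± 0.14, adjusted p = 1.28e-07) and to 291 and 326 in DKO (0.82 ± 0.14, adjusted p = 0.000153), and Rtp4 rose from 13.2 and 9.59 to 189 and 239 and to 167 and 137. Ifi27 was the member that fell in DKO: 899 and 904 in WT, 1204 and 1156 in Rb1 KO (0.39 ± 0.10, adjusted p = 0.00501), but 762 and 643 in DKO (-0.36 ± 0.10, adjusted p = 0.008). That fall was lost without DKO replicate 2 and with values scaled to the library total, where it was -0.09.

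**Figure D3:**
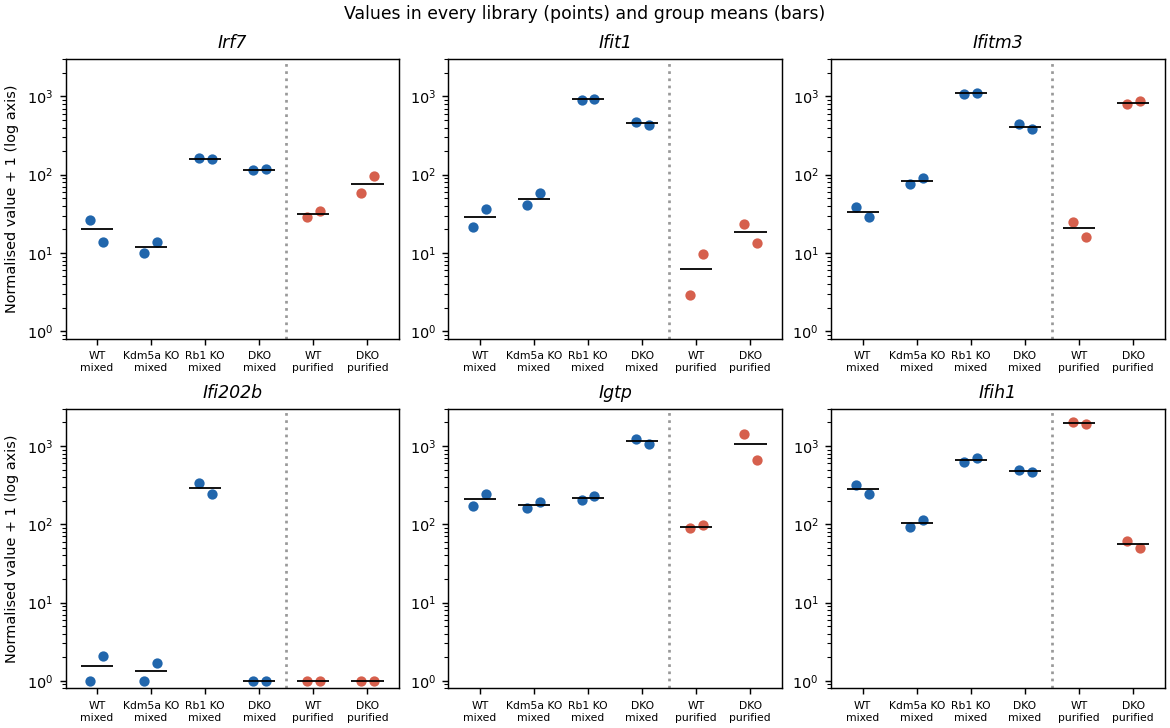
Value + 1 in normalised reads on a log axis for Irf7, Ifit1, Ifitm3, Ifi202b, Igtp and Ifih1 in the 6 groups, each point a library and each bar a group mean. The genes were chosen after their values were seen, to show the different patterns: Ifi202b is read in Rb1 KO cultures, Igtp is high in both kinds of DKO library, and Ifih1 is lowest in DKO purified myotubes at 60.2 and 49.2.

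Markers of other cells moved with these rises. The 8 fibroblast genes all rose in Rb1 KO against WT, where 36.8% of all genes rose and 34.3% fell. Their summed values are given above. Bulk RNA cannot tell more cells of a type from more RNA per cell. Among 12 macrophage and blood markers, 5 rose and 1 fell of 8 tested in Rb1 KO, at low levels: Lyz2 was at 77 and 56.1 in Rb1 KO against 2.39 and 3.2 in WT, Ptprc at 63.5 and 21.7 against 1.2 and 2.13, and Adgre1 at 25.7 and 39.8 against 1.2 and 0. Their sum ran the other way, 446 to 486 in Rb1 KO against 766 to 874 in WT, because Itgam was at 676 and 729 in WT and 18.9 and 19.9 in Rb1 KO. In DKO the sum was 427 to 441 and Lyz2 was at 10.5 and 11.1. Markers of lymphocytes and plasmacytoid dendritic cells summed to 9.96 to 34.0 normalised reads in all mixed libraries. Endothelial genes summed to 131 to 151 in WT, 323 to 352 in Rb1 KO and 806 to 858 in DKO. Erg made up much of the Rb1 KO sum, at 227 and 252 there against 33.5 and 17.1 in WT. Of 5 endothelial genes tested, 3 rose and 1 fell in Rb1 KO. All 5 rose in DKO, where 34.0% of all genes did. Tek was lower in Rb1 KO, at 40.5 and 34.4 against 67 and 65 in WT. Epithelial genes summed to at most 93.3 in any mixed library. The 4 proliferation genes summed to 256 to 274 in WT, 9981 to 10989 in Rb1 KO and 22414 to 22774 in DKO. The part of these cells and states in the members' changes was not tested.

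Loss of Kdm5a alone moved fewer members, some up and some down. In Kdm5a KO against WT, 13 of 41 members rose, 4 fell and 24 did not pass, against 13.4% and 13.8% of all genes, with a median of 0.27. Gbp3 was the clearest rise: it had no reads in WT and 47.9 and 62.3 in Kdm5a KO, at least 33.1-fold higher. Zbp1 went from 1.2 and 2.13 to 40.7 and 25.9, a ratio of 19.1 with a 95% counting interval of 6.32 to 94.7, and was as high there as in Rb1 KO. Stat2 rose from 249 and 266 to 495 and 499 (0.95 ± 0.13, adjusted p = 0.000158). Dtx3l rose to 315 and 268 (1.40 ± 0.14, adjusted p = 2.03e-05), Parp9 to 138 and 158 (1.04 ± 0.17, adjusted p = 0.000646) and Ifitm3 to 75.1 and 88.9 (1.32 ± 0.18, adjusted p = 0.000202). For these 6 genes no Kdm5a KO library overlapped WT. Smaller rises of Samhd1 (0.41 ± 0.10, adjusted p = 0.0123) and Irgm1 (0.40 ± 0.09, adjusted p = 0.00728) were lost when Kdm5a KO replicate 2 was left out, as were those of Oasl1 (1.32 ± 0.39, adjusted p = 0.0245) and Mx2 (1.12 ± 0.29, adjusted p = 0.0141), and that of Ifit1 (0.80 ± 0.25, adjusted p = 0.0298) was lost with no filter (adjusted p = 0.0618), with 1 fit over all 12 libraries (adjusted p = 0.425) and without 6 of the 8 libraries, its value moving most without WT replicate 1 (0.42, adjusted p = 0.176) and Kdm5a KO replicate 2 (0.55, adjusted p = 0.202).

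The 4 falls among 41 members in Kdm5a KO, where 13.8% of all genes fell, were Ifih1, Ifit2, Ifit3 and Oasl2. Ifih1 went from 321 and 241 to 92.2 and 113 (-1.44 ± 0.16, adjusted p = 3.70e-05). Ifit2 went from 562 and 536 to 199 and 209 (-1.42 ± 0.10, adjusted p = 1.03e-06). Neither gene's libraries overlapped between the groups. The other two were low: Oasl2 was at 8.38 and 4.26 in WT and 0.904 and 0.7 in Kdm5a KO, which is 7.86-fold lower with a 95% counting interval of 1.71 to 72.9. Its call was lost with a pseudocount of 10 (-0.58, adjusted p = 0.11). Ifit3 was at 7.18 and 7.46 against 0.904 and 3.5 (-1.51 ± 0.51, adjusted p = 0.0464), and its call was lost under most other settings, with edgeR at an adjusted p of 0.117. Most of the signalling factors did not pass: Irf1 (0.27 ± 0.12, adjusted p = 0.115), Irf7 (-0.70 ± 0.35, adjusted p = 0.165) and Irf9 (-0.03 ± 0.15, adjusted p = 0.907).

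Within Rb1-deficient cultures, further loss of Kdm5a left most members high and lowered some. In DKO against Rb1 KO, 5 of 41 members rose, 15 fell and 21 did not pass, against 23.1% and 24.2% of all genes, and the median was -0.36. Of the 6 tested members with varied functions, 5 fell. Ifi202b had 339 and 242 in Rb1 KO and no reads in DKO, at least 415-fold lower. Xaf1 fell by 2.62 ± 0.41 on the log2 scale, from 660.3 and 622 to 97.8 and 109.8 (adjusted p = 0.000181). Ifi44 fell from 494 and 501 to 148 and 123 (-1.87 ± 0.43, adjusted p = 0.0034), a call that was lost without DKO replicate 2 at an adjusted p of 0.0512. Ifitm3 fell by 1.41 ± 0.18 (adjusted p = 3.87e-05), Ifit1 by 1.02 ± 0.25 (adjusted p = 0.00446), Adar by 0.93 ± 0.12 (adjusted p = 4.60e-05), Ifi35 by 0.91 ± 0.14 (adjusted p = 0.000128), Ddx58 by 0.80 ± 0.16 (adjusted p = 0.00119), Irf9 by 0.76 ± 0.15 (adjusted p = 0.000881), Bst2 by 0.77 ± 0.14 (adjusted p = 0.000687) and Stat2 by 0.59 ± 0.13 (adjusted p = 0.00189). Each of these genes had both DKO libraries under both Rb1 KO libraries, yet, Ifi202b apart, above both WT libraries. Ifi27 fell by 0.75 ± 0.10 (adjusted p = 7.39e-05), to below both WT libraries. The falls of Ifit2 (-0.26 ± 0.10, adjusted p = 0.0459) and Ifih1 (-0.46 ± 0.16, adjusted p = 0.028) were lost when single libraries were left out. In this comparison the fibroblast sum fell too, from 55759 to 71881 in Rb1 KO to 12435 to 13318 in DKO, and of 8 tested macrophage markers 2 rose and 5 fell. Their part in the falls was not tested.

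The 5 members that rose from Rb1 KO to DKO were Igtp, Trim30a, Cmpk2, Rsad2 and Irf1. Igtp rose by 2.41 ± 0.18 (adjusted p = 2.66e-07) and Trim30a by 2.78 ± 0.36 (adjusted p = 3.72e-05). Both had been near their WT level in Rb1 KO. Cmpk2 rose from 47.3 and 46.2 to 140.4 and 125 (1.49 ± 0.43, adjusted p = 0.0129) and Rsad2 from 136 and 144 to 368 and 338 (1.32 ± 0.34, adjusted p = 0.00638). Without any of the 4 libraries of this comparison the Cmpk2 call was lost, with values of 1.40 to 1.57, and the Rsad2 call was lost without DKO replicate 1 (1.26, adjusted p = 0.0542). Irf1 rose by 0.48 ± 0.12 (adjusted p = 0.00566), and the call was lost without either DKO library, at adjusted p-values of 0.0521 and 0.053. Without DKO replicate 1 the count of rises was 2, and without replicate 2 it was 3.

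Against Kdm5a KO, with its own Kdm5a loss held constant, DKO cultures had 33 members risen, 2 fallen and 6 that did not pass, against 33.7% and 33.4% of all genes, with a median of 2.11. Scaled to the library total, 63.0% of all calls in this comparison were rises, against 50.2% on the authors' scale. Markers moved in this comparison too: 6 of 8 fibroblast, 5 of 5 tested endothelial and 4 of 4 proliferation genes rose. In Kdm5a KO the fibroblast genes summed to 8248 to 8619, the endothelial genes to 238 to 265 and the proliferation genes to 392 to 488, and their part in the members' changes was not tested. Stat2 (-0.47 ± 0.13, adjusted p = 0.00536) and Ifi27 (-0.66 ± 0.10, adjusted p = 0.000103) were the members that fell. Oasl2 went from 0.904 and 0.7 to 246 and 211, a ratio of 286 with a 95% counting interval of 78.9 to 2364. Gbp3 (0.65 ± 0.36, adjusted p = 0.132) and Zbp1 (-0.12 ± 0.45, adjusted p = 0.823), which were already raised in Kdm5a KO, did not pass.

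The interaction between the genotypes, that is the effect of Kdm5a loss in Rb1-deficient cultures minus its effect in Rb1-proficient ones, passed for 27 members. It was positive for 6 and negative for 21, with 14 not passing, against 18.8% and 19.5% of all genes, and a median of -0.91. A negative value means that the double mutant was lower than the sum of the single changes on the log2 scale. It was -1.54 ± 0.18 for Stat2 (adjusted p = 2.59e-05), which rose about as much in either single mutant and less in DKO. It was -2.73 ± 0.26 for Ifitm3 (adjusted p = 4.62e-06), -2.95 ± 0.57 for Xaf1 (adjusted p = 0.00145) and -6.25 ± 0.51 for Gbp3 (adjusted p = 1.42e-06). Gbp3 had no reads in WT, so its value depends on the 1 added before the log, and its size is not known. The positive values belonged to Igtp (2.63 ± 0.25, adjusted p = 4.83e-06), Trim30a (3.34 ± 0.50, adjusted p = 0.000224), Ifit2 (1.17 ± 0.14, adjusted p = 3.10e-05), Ifih1 (0.97 ± 0.22, adjusted p = 0.00419), Oasl2 (2.34 ± 0.58, adjusted p = 0.00643) and Cmpk2 (2.26 ± 0.61, adjusted p = 0.0111). The Oasl2 value was lost with a pseudocount of 10 (0.95, adjusted p = 0.0531) and that of Cmpk2 without DKO replicate 1 (2.18, adjusted p = 0.0562). For Ifit2, Ifih1 and Oasl2 the positive value came with a fall in Kdm5a KO against WT. From Rb1 KO to DKO the falls of Ifit2 and Ifih1 were smaller, and Oasl2 did not pass (0.38 ± 0.41, adjusted p = 0.476).

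**Figure D4:**
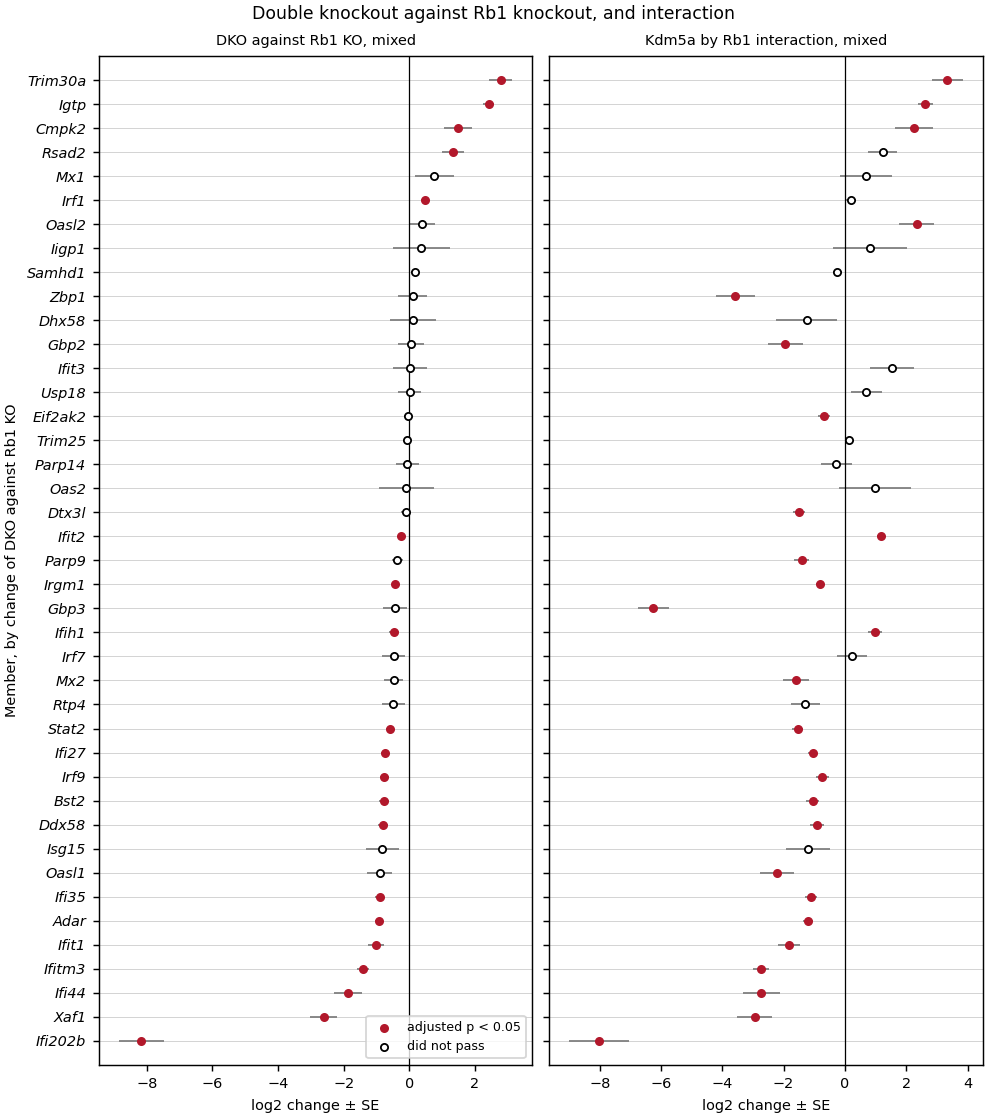
Log2 change of 41 members in DKO against Rb1 KO and the interaction of the genotypes, with standard errors, ordered by the change in DKO against Rb1 KO, where filled points passed an adjusted p of 0.05. Ifi202b lies lowest at -8.17 and Trim30a highest at 2.78 in DKO against Rb1 KO.

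In purified myotubes the list rose less, and the share of members that fell was near that of all genes. Of 28 members tested in DKO against WT, 10 rose, 5 fell and 13 did not pass, against 21.0% and 18.6% of all 16670 genes, with a median of 0.64 over the members and -0.05 over all genes. The other 16 members had a mean under 10 in these libraries, and 3 of the 28 passed only through DKO. With no filter, 10 rose and 6 fell of 41 with reads, against 15.7% and 13.4% of all genes. Scaled to the library total, 64.4% of all calls were rises, against 53.0% on the authors' scale. The calls changed with the libraries kept, and the replicates were unequal: over all genes they differed by a median of 0.499 in DKO purified and 0.137 in WT purified libraries. Fewer members passed without WT purified replicate 1, and likewise without replicate 2. Of the members called, Ifih1, Ifitm3 and Igtp kept their calls in both of those fits. Macrophage markers summed to 2252 to 2378 in WT and 1062 to 1941 in DKO myotubes, and of 4 tested 1 rose and 2 fell. Itgam went from 1873 and 1719 to 229 and 239 and Csf1r from 81.9 and 99.4 to 8.13 and 5.23, while Cd68 went from 42.8 and 53.4 to 416 and 1043 and Lyz2 was at 0 in both WT libraries and at 0 and 3.14 in DKO. Endothelial genes summed to 154 to 162 in WT and 819 to 860 in DKO, where 4 of 5 tested rose. Erg made up much of the DKO sum, at 582 and 539. The proliferation genes summed to 387 to 511 in WT and 12365 to 23187 in DKO. Their part in these changes, and that of the fibroblast markers given above, was not tested.

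Ifitm3 rose most, from 24.2 and 14.9 in WT myotubes to 797 and 863 in DKO myotubes (5.37 ± 0.33, adjusted p = 0.00114). Igtp rose from 89.3 and 95.7 to 1429 and 666 (3.39 ± 0.41, adjusted p = 0.00404), with the 2 DKO libraries far from each other. Irf1 rose from 127 and 99.4 to 493 and 515 (2.16 ± 0.25, adjusted p = 0.00363). These 3 genes had no overlap between the groups. Samhd1 rose from 553 and 603 to 1397 and 1739 (1.43 ± 0.21, adjusted p = 0.007), Dtx3l from 13 and 39.8 to 163 and 155 (2.74 ± 0.57, adjusted p = 0.0177) and Parp9 from 26 and 36 to 97.6 and 113 (1.74 ± 0.34, adjusted p = 0.0154). Mx2, Rsad2, Ifi35 and Stat2 made up the rest, with changes of 2.38 ± 0.57, 1.31 ± 0.29, 1.15 ± 0.23 and 0.81 ± 0.24 (adjusted p = 0.0264, 0.0226, 0.017 and 0.0477).

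Ifih1 was the largest fall in myotubes, and had been among the highest members in WT myotubes. It stood at 2026 and 1912 in WT and 60.2 and 49.2 in DKO (-5.15 ± 0.23, adjusted p = 0.000849). Ddx58 fell from 207 and 159 to 53.7 and 59.6 (-1.66 ± 0.29, adjusted p = 0.0114), so both RNA sensors that signal through Mavs were lower in DKO myotubes. Ifi27 fell from 584 and 504 to 159 and 93.1 (-2.15 ± 0.33, adjusted p = 0.0079), Ifit2 from 839 and 663 to 356 and 160.1 (-1.64 ± 0.42, adjusted p = 0.0336) and Trim25 from 1258 and 1369 to 795 and 706 (-0.81 ± 0.19, adjusted p = 0.0273). All 5 had every DKO library under every WT library. Several members that rose in DKO mixed cultures were near 0 in both kinds of myotube: Ifi44 was at 1.86 and 2.48 in WT and 0 in DKO, Oasl2 at 0 in WT and 4.88 and 0 in DKO, Iigp1 at 0 in all 4 libraries, and Isg15 at no more than 8.13. Oas1a and Ifi202b were at 0 in all 4 as well. Ifit3 was at 11.2 and 9.94 in WT and without reads in DKO, at least 5.46-fold lower, and Parp14 was without reads in WT and at 26 and 10.5 in DKO, at least 7.41-fold higher. Irf7 (1.24 ± 0.40, adjusted p = 0.0616), Irf9 (0.13 ± 0.32, adjusted p = 0.768), Ifit1 (1.77 ± 0.79, adjusted p = 0.133), Adar (0.31 ± 0.27, adjusted p = 0.396) and Xaf1 (-0.37 ± 0.44, adjusted p = 0.529) did not pass.

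The difference between the DKO effect in purified myotubes and in mixed cultures was tested over all 12 libraries. It was positive for 1 of 41 members and negative for 22, with 18 not passing, against 11.6% and 13.2% of all 17273 genes, and its median was -1.53 over the members and -0.06 over all genes. Of the 22 negative members, 15 were tested in the purified libraries, and the other 7, Gbp2, Gbp3, Ifi44, Ifit3, Iigp1, Oasl2 and Rtp4, were too low there for a test, so that their difference mainly restates the rise in mixed cultures. The positive member was Ifitm3 (1.74 ± 0.35, adjusted p = 0.00563). Among the 15, Ifih1 had the largest difference (-5.94 ± 0.26, adjusted p = 3.75e-06). Of the 7, Iigp1 had no reads in any purified library, so its value (-5.77 ± 1.33, adjusted p = 0.0113) is the mixed change with its sign turned, and it was lost with edgeR (adjusted p = 1) and DESeq2 (adjusted p = 0.295). Xaf1 (-3.68 ± 0.62, adjusted p = 0.00238), Ddx58 (-2.43 ± 0.28, adjusted p = 0.000281), Ifit2 (-1.86 ± 0.41, adjusted p = 0.00907), Ifi27 (-1.78 ± 0.32, adjusted p = 0.003) and Irf9 (-1.19 ± 0.30, adjusted p = 0.0169) were lower too. Ifit1 (-2.25 ± 0.74, adjusted p = 0.0498) and Adar (-0.84 ± 0.26, adjusted p = 0.0408) passed narrowly and were lost in most fits that left out a library. Stat2, Irf1, Dtx3l, Samhd1 and Igtp did not pass, with differences of 0.33 ± 0.23, 0.22 ± 0.22, 0.11 ± 0.55, -0.05 ± 0.19 and 0.90 ± 0.44 (adjusted p = 0.315, 0.512, 0.908, 0.884 and 0.164). Purification, trypsin treatment, RNA selection, read length and instrument all differ between the 2 kinds of library, so what the purification itself changed cannot be told apart from the rest. The fit took 1 spread per gene over all 6 groups. Over all genes the DKO purified replicates differed by a median of 0.499 on the log2 scale, those of the other groups by 0.107 to 0.176. The standard errors and adjusted p-values of the difference may therefore be too small.

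**Figure D5:**
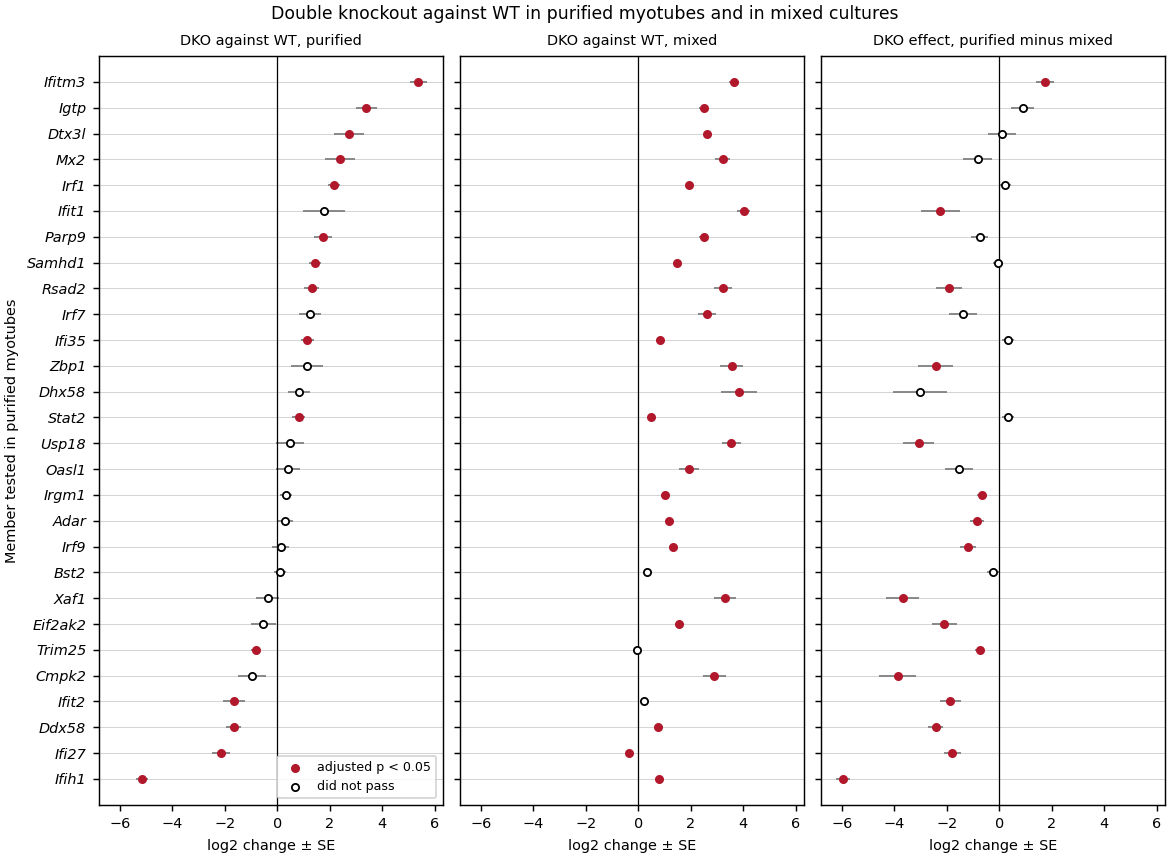
Log2 change of 28 members in DKO against WT in mixed cultures and in purified myotubes, and the difference of the 2 effects, with standard errors, where filled points passed an adjusted p of 0.05. Ifitm3 lies highest and Ifih1 lowest in purified myotubes, at 5.37 and -5.15.

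The genes around the list were followed through a list of 56 pathway genes, of which 49 were matched. Interferon ligands themselves were barely read: of 17 listed, 10 were matched, 6 of these had no reads in any library, and none reached the mean needed for a test. The highest value was 16.2 normalised reads, for Ifna13 in Rb1 KO replicate 1, and no other ligand passed 7.36. In Rb1 KO against WT, where 36.8% of all genes rose and 34.3% fell, 6 of 11 receptors, kinases and STATs rose and 2 fell. Jak2 (0.83) and Il10rb (1.41) rose and Stat3 (-0.83) fell in Rb1 KO. The sensing genes outside the list had 6 risen and 6 fallen of 16, near those shares, with Mb21d1, the DNA sensor cGAS, up by 3.56 and Tlr3 up by 2.80, while Tlr4 (-1.46) and the adaptor Mavs (-0.65) were lower. Genes that restrain the response had 5 risen and 2 fallen of 10, among them Rnaseh2b (2.14), Socs3 (1.02) and Pias1 (0.53) up and Ptpn11 (-0.34) down.

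The same pathway groups are given for the other comparisons beside the shares of all genes, and many of these small counts lie near them. In DKO against WT (34.0% and 33.9%), 3 receptors, kinases and STATs rose and 5 fell, 6 sensing genes rose and 6 fell, and 5 restraining genes rose and 2 fell. In DKO against Rb1 KO (23.1% and 24.2%), 1 of the receptor group rose and 7 fell, 1 sensing gene rose and 4 fell, and 2 restraining genes rose and 1 fell. Kdm5a KO against WT (13.4% and 13.8%) had no rise and 1 fall in the receptor group, 3 and 1 in the sensing group and 2 and 1 in the restraining group. In purified DKO myotubes (21.0% and 18.6%) 2 of 10 tested receptors, kinases and STATs rose, among them Il10rb (1.14), and 4 fell. The 4 were both chains of the type I receptor, Ifnar1 (-1.17) and Ifnar2 (-1.07), the interferon gamma receptor chain Ifngr2 (-1.06) and Jak2 (-1.05). Of 16 sensing genes Mb21d1 (2.78) and Irf8 (4.16) rose and Tlr4 (-2.20) and Ifi204 (-2.25) fell. Of 10 restraining genes Socs3 (1.84) and Ptpn6 (1.56) rose and none fell. These pathway genes of the myotubes are named because the counts are small, after their values were seen.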

How the data were processed

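The deposited value of a gene in a library is a signal, a number of reads over that library's size factor. TopHat 1.2.0 (mm9) and DESeq were the tools, per the submitters' processing notes. The read counter and annotation are not given in the sources used here. Each column's smallest step gave back whole reads (100% of values within 0.01), so the deposited signal was analysed as given, and the reads served for totals, counting intervals and the edgeR and DESeq2 alternatives. Columns were matched to samples by the labels. Symbols and exon lengths came from GENCODE M21, of a later build than mm9, so no gene coordinates are given. It named 30983 of 36229 identifiers (85.5%). Promoters came from RefSeq.

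Fits used limma 3.58.1 (R 4.3.3) with an intensity trend on log2(value + 1), genes averaging 10 or more over the libraries in a fit, two-sided tests, Benjamini-Hochberg adjustment over all genes and a threshold of 0.05: 1 fit on the 8 mixed libraries, 1 on the 4 purified ones and 1 on all 12 for the difference between them. The spread is pooled over groups of n = 2. Alternatives were a pseudocount of 10, no filter, a mean of at least 50, scaling to the library total, edgeR 4.0.16, DESeq2 1.42.0, 1 fit over all libraries, members sharing exons left out, a replicate block and each library left out. On simulated counts limma's false calls in the 8-library fit were above the nominal share, more so than those of edgeR or DESeq2, and none had the wrong sign. The simulation gave every group the same spread, so it does not cover the larger spread of the DKO purified libraries.

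Members and lists (pathway genes, and markers of fibroblasts, skeletal muscle, macrophages and blood, lymphocytes and plasmacytoid dendritic cells, endothelium, epithelium, proliferation and sex) were chosen with earlier results of these data known. Statistics in full were fixed for 22 members, the 4 transcription factors and the 3 with the highest mean mixed value in each other role, and for members against a comparison's direction, under the filter or at 0. Other members named were chosen after their values were seen. Pathway genes were named by the smallest p in Rb1 KO against WT, up to 4 a class; some are not reported here. Folds against a group without reads use a floor of 3 reads over the group, and 95% intervals of read ratios cover counting error only.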

Additional observations from a re-analysis of the deposited data

Results flagged for a closer look

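The effect of Kdm5a loss differed between cultures with and without Rb1, by a test of the difference itself, for 6 members upward and 21 downward. Among the members followed in full the difference was -1.54 for Stat2, -0.73 for Irf9, 0.97 for Ifih1, -0.91 for Ddx58, -1.51 for Dtx3l, -1.41 for Parp9, -1.83 for Ifit1, 1.17 for Ifit2 and -1.20 for Adar on the log2 scale. It was -1.06 for Bst2, -2.73 for Ifitm3, 2.63 for Igtp, -0.83 for Irgm1, -1.11 for Ifi35, -1.05 for Ifi27 and -2.95 for Xaf1. Igtp, whose reads may partly be those of Irgm2, stands out among GTPases: it rose where both genes were lost and in neither single mutant past the threshold.

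The effect of losing both genes differed between purified myotubes and mixed cultures, upward for 1 member and downward for 22. The difference was -1.19 for Irf9, -5.94 for Ifih1, -2.43 for Ddx58, -0.74 for Trim25, -2.25 for Ifit1, -1.86 for Ifit2 and -0.84 for Adar. It was 1.74 for Ifitm3, -0.67 for Irgm1, -5.77 for Iigp1, -1.78 for Ifi27 and -3.68 for Xaf1. Iigp1 had no reads in any purified library, so its value is the mixed change with its sign turned, and it was lost with edgeR and DESeq2. The 2 kinds of library also differ in RNA selection, read length and handling. The fit pooled the spread of all groups, though the DKO purified replicates differed more than the others, so these differences may look too certain.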

How the results depend on the processing

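With n = 2 a group, depth limits members near 0, whose ratios carry wide counting intervals. Under alternatives that kept all libraries, 2291 of 2415 single-gene values kept their direction and side of the threshold, 55 lost the call, 49 gained one, 17 moved and 3 reversed. The reversals were Trim25 in Rb1 KO against WT when scaled to the library total (0.27) and Parp14 in the difference between purified and mixed effects with a pseudocount of 10 (-1.29) and with that scaling (-1.32). Leaving out 1 library kept 2367 of 2569, with 111 calls lost, 32 gained, 59 moved and 0 reversed.

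Falls in Kdm5a KO against WT numbered 2 with a pseudocount of 10 and 2 when scaled to the library total. With 1 fit over all libraries, 6 rose and 2 fell there, the fall in DKO against WT numbered 0, positive interactions 3 and rises in purified DKO 17. Scaled to the library total, falls numbered 0 in DKO against WT, 1 in DKO against Kdm5a KO and 3 in purified DKO. Without members that share exons, 6 rose in purified DKO. Leaving out single libraries gave 0 to 1 falls in DKO against WT, 2 to 5 rises in DKO against Rb1 KO, 4 to 12 rises and 1 to 8 falls in purified DKO, and 1 to 2 positive and 14 to 25 negative differences between purified and mixed effects. Calls over all genes moved as well in some of these fits, as given next. Shares of all genes by direction are not given for most of them, nor for the replicate block below. The cause was not tested.

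Over all genes, 1 fit over all libraries moved the calls from 4685 to 1272 in Kdm5a KO against WT, from 8128 to 4742 in DKO against Rb1 KO, from 6591 to 2910 for the interaction and from 6598 to 10357 in purified DKO. Leaving out a purified library gave 1983 to 11574 calls there.

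Replicate numbers did not pair the libraries: same-numbered deviations correlated at -0.033 to 0.053. With the replicate block, rises and falls were 38 and 0 in Rb1 KO, 14 and 3 in Kdm5a KO and 36 and 1 in DKO against WT, 5 and 14 against Rb1 KO, 33 and 2 against Kdm5a KO, 6 and 22 for the interaction, 10 and 5 in purified DKO and 1 and 21 for the difference of effects.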
